A study of Mus musculus with 37 samples.

Results

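The genes described here are 9 T cell genes read in RNA bound to tagged ribosomes of mouse lymph nodes and spleen: the receptor chains Cd3d, Cd3e and Cd3g, the adhesion receptor Cd2, the signalling adaptor Lat, the co-receptors Cd4 and Cd8a, and the transcription factors Eomes and Tox2. They were taken by symbol from the deposited table, in which they are 9 of 56351 genes, and all 9 passed the filter on low counts in the deeper libraries. They were selected on levels measured in these same libraries, with earlier results known. Among those values was a lower level of Eomes in ileal than in ceco-colonic node, so that difference carries no test here. For the other 8 genes the values behind the choice are not recorded, and a test below is not independent support for having chosen them.

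The mice carried the RiboTag allele, a version of the ribosomal protein gene Rpl22 whose product bears a haemagglutinin (HA) tag after Cre recombination, and were crossed to CD169-Cre mice. All 37 libraries, the isotype control included, are labelled CD169 Cre KI/KI, Rpl22HA homozygous, and no untagged or Cre-negative animals are among them. Each of 12 tissues gave 3 pull-down libraries. The tissues were ileal, jejunal, duodenal, ceco-colonic, celiac and liver node, then mediastinal, deep cervical, super cervical, iliac and inguinal node, and spleen. The isotype control is 1 library made from jejunal node. The labels give no age, sex or treatment, and do not say whether libraries of a site came from separate animals, so p-values measure only the spread between these libraries. The CD169 promoter is known for its activity in sinus and marginal zone macrophages, and the labels call the cells CD169 macrophages. Siglec1, the gene of CD169, was low, between 0 and 3.33 CPM in the 22 deeper libraries. The mediastinal libraries held 50.1, 54.9 and 230 counts of it. All animals are labelled KI/KI for CD169 Cre, and the part of that genotype in the low Siglec1 level was not tested. Marco, a scavenger receptor of sinus macrophages, ran from 118 to 7820 CPM in the 22 deeper libraries. CPM is a gene's count divided by its library's total, times 1000000.

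A T cell reads antigen through a receptor whose α and β chains sit in a complex with the CD3 chains γ, δ, ε and ζ. When the receptor is engaged, the kinases Lck and Zap70 phosphorylate the complex and then Lat, a membrane adaptor on which the downstream signal is assembled. Cd4 and Cd8a encode co-receptors that bind MHC class II and class I. Eomes is a T-box factor of memory CD8 T cells and natural killer cells, and Tox2 is a high mobility group factor known from follicular helper and exhausted T cells and from natural killer cell development. Several of these genes are not limited to T cells in the mouse: Cd2 is also found on B cells, Cd4 on some dendritic cells and macrophages, and Cd8a on cross-presenting dendritic cells. A pull-down of ribosomes from tagged cells also carries untagged RNA, which the isotype control samples.

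Library totals ran from 221911 to 69139450 counts. Of the 36 pull-down libraries, 22 held 1000000 counts or more: 3 each from ileal, ceco-colonic, inguinal, super cervical, deep cervical and mediastinal node and spleen, and 1 from jejunal node. All tests use these 22. The other 14, all from duodenal, liver, celiac, iliac and jejunal node, gave 3 features with ribosomal sequence (Gm19220, Rn18s-rs5 and Lars2) 39.0% to 85.6% of their counts. In them 82 of 126 values of the 9 genes (65.1%) lay under 3 counts, and Cd3e never reached that number. The largest were 37.0 counts of Cd2 and 25.7 of Eomes, both in iliac replicate 2, and 23.8 of Tox2 in jejunal replicate 1. In iliac node Eomes, Cd2, Cd3g and Tox2 had more than 3 counts in all 3 libraries, as Eomes did in liver node. Where a gene lay under 3 counts, its absence could not be told from a low level at this depth.

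The isotype control shows what share of its library each gene took without the tag antibody. Because CPM values are shares of a library's total, equal values do not mean equal amounts of RNA recovered. Of the 8 genes with 10 or more isotype counts, 2 were at least 2-fold higher in the mean of the 3 jejunal pull-downs (Cd2 and Tox2) and 1 at least 2-fold lower (Cd8a). Cd4, with fewer isotype counts, was also that far above. Among the 9141 genes with 10 or more isotype counts, 20.3% were that far above and 34.1% that far below. The median log2 ratio of the 9 genes was 0.94 and that of all these genes -0.40. There was a single isotype library, so these ratios have no replicate check and no test. Intervals are given for isotype values of 4 genes and cover counting error only.

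Tox2 had 45.4 counts in the isotype library, or 9.08 CPM (exact Poisson 95% interval 6.56 to 12.04), and 48.0, 68.3 and 11.3 CPM in the 3 jejunal pull-downs. All 3 lay above the isotype value, the third within its interval. Their mean of 42.5 ± 28.9 CPM (SD, n = 3) gave a log2 ratio of 2.23. Cd4 rested on 6.04 isotype counts, 1.21 CPM (interval 0.440 to 2.61), and stood at 10.4, 2.37 and 3.04 CPM in the pull-downs, a log2 ratio of 2.13. Those values are 5.15, 4.62 and 0.780 counts, the third under 3 counts, and the second is inside the isotype interval. Cd2 had 11.6 CPM in the isotype library (interval 8.80 to 14.99) and 20.4, 67.9 and 0 CPM in the pull-downs. Its log2 ratio of 1.34 thus came from 2 of the 3 libraries.

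Eomes did not stand above the isotype level. It held 146 counts in the isotype library, or 29.1 CPM (interval 24.6 to 34.3), against 35.0, 35.1 and 8.75 CPM in the jejunal pull-downs, a log2 ratio of -0.15. The first 2 of these lie just above the isotype interval. The third is below it but rests on 2.24 counts. The CD3 genes gave no common direction: the log2 ratio was 0.94 for Cd3d (19.4 CPM in the isotype library), 0.67 for Cd3e (2.86 CPM) and -0.69 for Cd3g (18.2 CPM). Lat was at 11.9 CPM in the isotype library with a log2 ratio of 0.97. Cd8a was at 2.68 CPM there and at 0, 3.06 and 0 CPM in the pull-downs, for a log2 ratio of -1.39. The jejunal libraries disagreed with each other. Taken singly, the median ratio of the 9 genes was 0.27, 0.97 and -1.73, and without jejunal replicate 2, the only one above 1000000 counts, the median of the site changed sign to -0.19.

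Most T cell receptor, signalling and trafficking genes with 10 or more isotype counts were higher in the isotype library than in jejunal pull-downs. That filter leaves out list genes that were low in the isotype library. It thus tilts the counts toward a higher isotype level, here and over all 9141 genes. Of 16 receptor and signalling genes with 10 or more isotype counts, 2 were at least 2-fold above the isotype level and 8 at least 2-fold below, with a median log2 ratio of -1.10. Over all 9141 genes with that many isotype counts the shares were 20.3% and 34.1%, with a median of -0.40. Lck was at 215 CPM in the isotype library and 29.6 ± 30.3 CPM in jejunal node, and Ubash3a, a phosphatase-like regulator of receptor signalling, at 273 and 43.2 ± 34.8 CPM. The 2 genes above were Skap1, at 10.3 and 32.3 ± 26.1 CPM, and Themis, at 4.47 and 10.7 ± 17.9 CPM. Of 11 T cell transcription and trafficking genes, 2 were that far above and 7 that far below, with a median of -1.08. Il7r, the interleukin 7 receptor, was at 171 CPM in the isotype library and 40.8 ± 15.1 CPM in the pull-downs. The 2 genes above in this list were Ets1, at 8.61 and 30.7 ± 7.32 CPM, and Tcf7, at 3.11 and 6.55 ± 4.41 CPM. The TOX family and follicular helper list differed from both, with 4 of 6 genes that far above, 0 below and a median of 1.99. Summed over the B cell list the isotype library held 2862 CPM and the jejunal libraries 295 to 953 CPM. Pax5 alone was 2247 of the isotype CPM. Of 8 B cell genes with 10 or more isotype counts, 4 were at least 2-fold below the isotype level. The 1 gene that far above was Cd79a, at 5.26 CPM in the isotype library and 31.1 ± 25.7 CPM in the pull-downs. The summed sinus and resident macrophage list was instead lower in the isotype library, with 40.4 CPM there and 173 to 4819 CPM in the pull-downs. Marco alone gave 4155 of the 4819 CPM, in jejunal replicate 2. Of 5 macrophage genes with 10 or more isotype counts, 4 were at least 2-fold above the isotype level and 0 that far below. Malat1, a nuclear noncoding RNA, took 26.6% of the isotype counts.

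The isotype level of the 9 genes can also be set beside the other sites, although the isotype library comes from jejunal node alone. In ceco-colonic node all 9 genes were above it in every library (background 38.4% of 9141 genes), and in inguinal node 8 were (44.7%). It was 8 in ileal (51.2%), super cervical (38.1%) and mediastinal node (49.7%). The exception there was Eomes, below the isotype value in all 3 libraries of each site, as were 39.5%, 34.5% and 45.1% of the 9141 genes. In deep cervical node 7 genes were above (43.2%), Eomes was below (42.7%) and Cd8a overlapped. In spleen only Cd2 and Cd4 were above in all 3 libraries (17.4%), while Cd3d, Cd3e, Cd3g, Cd8a and Tox2 were below in all 3 (35.5%). Eomes and Lat overlapped the isotype level there. Tox2 in ileal node was at 309 ± 45.1 against 9.08 CPM (log2 ratio 5.09). Cd4 in mediastinal node was at 77.6 ± 12.9 against 1.21 CPM, the latter from 6.04 counts. The numbers of genes above the isotype level at each site include Cd4, which is not among the 9141 genes.

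**Figure D1:**
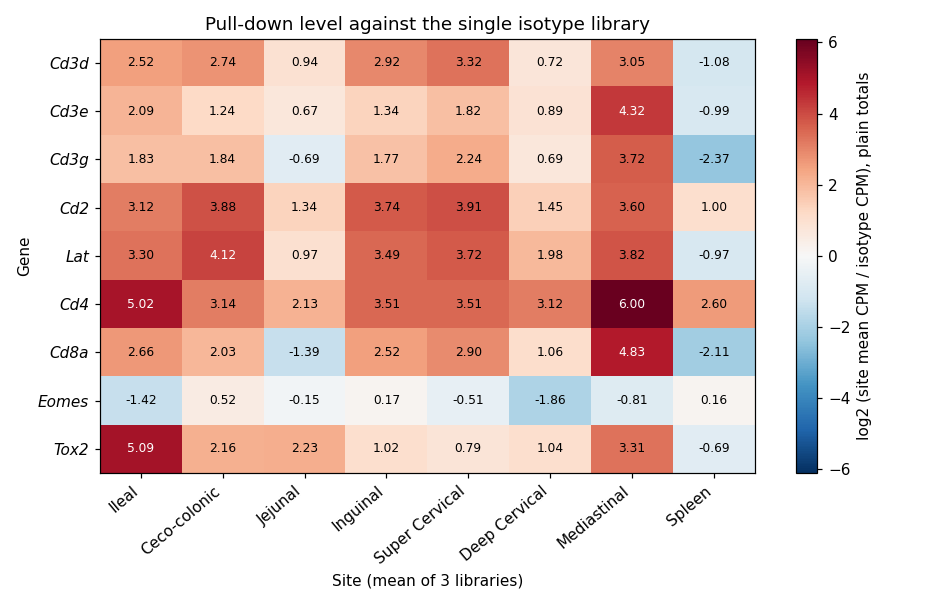
Log2 ratio of the mean CPM of 3 pull-down libraries to the CPM of the single isotype library, on plain library totals, for the 9 genes (rows) at 8 sites (columns). Red cells lie above the isotype level and blue cells below it: the Eomes row runs from -1.86 to 0.52, and the spleen column is blue for Cd3d, Cd3e, Cd3g, Lat, Cd8a and Tox2.

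From here on CPM values are scaled with TMM factors within the 22 deeper libraries. Cd3d, Cd3e and Cd3g encode the δ, ε and γ chains of the receptor complex and lie together on mouse chromosome 9. The transcription starts of Cd3d and Cd3g are 1355 bases apart and face away from each other, and Cd3e starts 27825 bases from Cd3d. The 250 bases before each start are shown because these neighbouring genes did not keep the same proportions across sites, as described below (RefSeq, GRCm38.p6; Cd3d chr9:44981536-44981785 on the plus strand, Cd3e chr9:45009612-45009861 and Cd3g chr9:44980432-44980681 on the minus strand). Each is written 5′ to 3′ in the gene's own direction. Capitals mark matches to the ETS motif AGGAAG or the GATA motif AGATAA on either strand.
Cd3d: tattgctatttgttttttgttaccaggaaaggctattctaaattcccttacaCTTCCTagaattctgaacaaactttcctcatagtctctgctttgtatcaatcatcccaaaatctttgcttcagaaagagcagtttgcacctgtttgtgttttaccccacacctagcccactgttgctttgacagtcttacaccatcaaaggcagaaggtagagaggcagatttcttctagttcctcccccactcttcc
Cd3e: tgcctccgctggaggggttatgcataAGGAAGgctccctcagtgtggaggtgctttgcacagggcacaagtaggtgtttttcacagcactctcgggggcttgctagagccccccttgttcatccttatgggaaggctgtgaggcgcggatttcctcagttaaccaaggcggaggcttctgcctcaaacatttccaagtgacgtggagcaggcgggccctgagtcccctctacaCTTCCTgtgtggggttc
Cd3g: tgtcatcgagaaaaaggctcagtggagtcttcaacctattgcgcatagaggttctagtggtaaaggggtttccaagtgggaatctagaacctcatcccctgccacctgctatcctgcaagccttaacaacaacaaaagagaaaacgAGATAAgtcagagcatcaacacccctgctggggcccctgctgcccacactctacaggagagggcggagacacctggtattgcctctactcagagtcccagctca

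The ETS motif AGGAAG occurred once in the Cd3d window and at 2 positions of the Cd3e window, and the GATA motif once in the Cd3g window. Of 32851 promoter windows of that length, 29.5% held this ETS motif and 9.99% the GATA motif. RefSeq windows were at hand for 7 of the 9 genes, all but Cd2 and Cd4. None of the 7 held the T-box motif AGGTGTGA (1.12% of windows), the RUNX motif TGTGGT (14.0%) or the E-box CAGCTG (13.0%), each searched on both strands. The Lat window held AGGAAG once, and those of Cd8a, Eomes and Tox2 none of the 5 motifs as spelled here. Shorter parts of these motifs, such as GGAA, were not searched. For Tox2 only 1 of 5 listed starts was searched, and the Eomes start was not matched to a GENCODE transcript.

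Cd3d was read at 92.5, 81.3 and 101 CPM in ileal node and at 115, 138 and 198 CPM in ceco-colonic node. The inguinal libraries gave 88.6, 147 and 198 CPM, the super cervical ones 196, 155 and 229 CPM and the mediastinal ones 113, 121 and 109 CPM. Deep cervical node gave 19.5, 34.7 and 20.2 CPM and spleen 11.5, 24.8 and 6.60 CPM. Every deep cervical and spleen library was thus below every library of the other node sites, while those sites overlapped or adjoined each other. For this and later descriptions of non-overlapping libraries, the share of all genes was not computed. Cd3e was ordered differently, and its highest site was mediastinal node with 30.4, 49.0 and 42.9 CPM. The other 5 node sites lay between 2.60 and 17.6 CPM and spleen between 1.44 and 2.88 CPM. No library reached the mediastinal ones. Cd3g was also highest in mediastinal node, at 151, 193 and 169 CPM, above the single super cervical library of 140 CPM that came nearest. It was at 18.2 to 27.8 CPM in deep cervical node and 2.87 to 6.60 CPM in spleen, the lowest of all sites.

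Cd2, which binds CD48 on neighbouring cells, and Lat followed Cd3d rather than Cd3e. Cd2 reached 135, 210 and 247 CPM in ceco-colonic node and 193, 199 and 151 CPM in super cervical node. It was at 79.4, 81.6 and 85.4 CPM in ileal node, below all 6 of those values. Lat was highest in ceco-colonic node, where its 226, 230 and 253 CPM lay above every other library. Ileal node held 102, 90.1 and 93.8 CPM of Lat, deep cervical node 33.5, 58.5 and 19.0 CPM and spleen 3.59, 19.8 and 4.40 CPM.

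Both co-receptors were highest in mediastinal node. Cd4 was at 43.6, 65.0 and 58.3 CPM there and at 27.4, 37.9 and 29.7 CPM in ileal node, and these 6 libraries lay above all the others. The remaining node libraries held 2.60 to 20.2 CPM, and the spleen libraries 2.87, 4.16 and 23.1 CPM, so that 1 spleen library stood apart. Cd8a was at 45.2, 61.0 and 57.8 CPM in mediastinal node and at most 38.7 CPM elsewhere, in super cervical replicate 3. In spleen it was at 0, 1.28 and 1.10 CPM, and 3 counts correspond to 0.312 to 2.57 CPM in these libraries, so 2 of the 3 lie under that floor. Replicate 3 of inguinal and super cervical node had the highest Cd3e, Cd4 and Cd8a of its site and, at 16823454 and 9067640 counts, was also the deepest library of its site; the part of depth in this was not tested.

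Eomes and Tox2 each had an order of sites of their own. Eomes was highest in spleen with 71.1, 45.1 and 35.2 CPM, in the single jejunal library with 57.1 CPM and in ceco-colonic node with 37.6, 50.1 and 56.9 CPM, and these sites overlapped. Inguinal node held 25.1, 51.7 and 26.3 CPM and super cervical node 30.1, 23.3 and 13.2 CPM. The lowest were mediastinal node with 11.6, 13.7 and 10.4 CPM, ileal node with 7.78, 7.04 and 12.6 CPM and deep cervical node with 12.7, 4.82 and 2.72 CPM, which overlapped with each other. Tox2 was highest in ileal node, at 233, 264 and 258 CPM, and next in the jejunal library at 112 CPM. Mediastinal node followed with 57.1, 61.6 and 73.9 CPM and ceco-colonic node with 58.5, 41.1 and 38.0 CPM, 1 of which lies within the mediastinal range. Inguinal, super cervical and deep cervical node were at 9.95 to 23.8 CPM and spleen at 6.60 to 12.2 CPM.

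**Figure D2:**
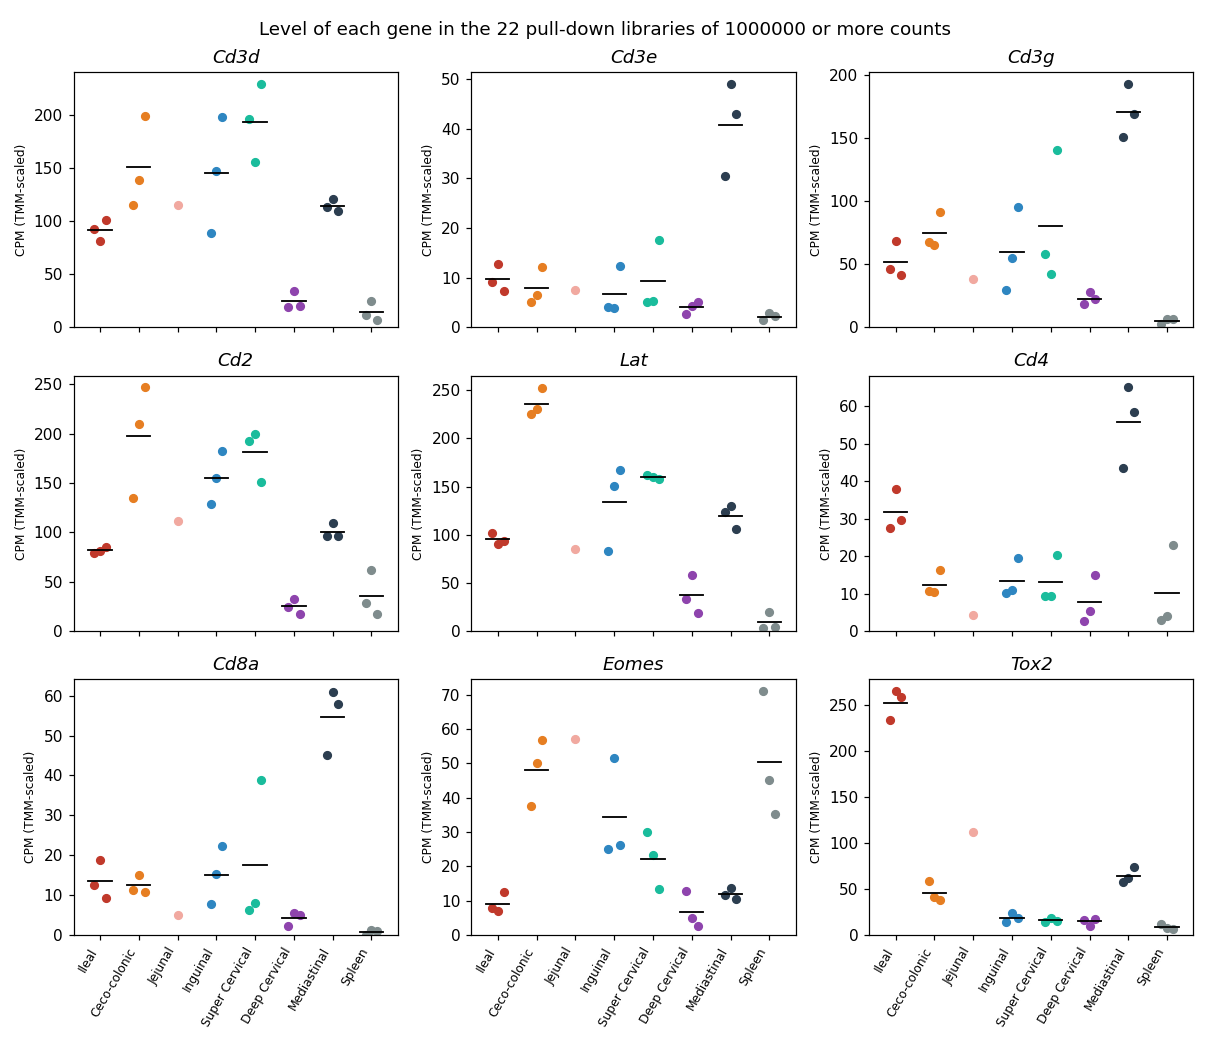
CPM (TMM-scaled, linear axes from 0) of each of the 9 genes in the 22 pull-down libraries of 1000000 or more counts, with 1 point per library, coloured by site, and a bar at the site mean where there are 3 libraries. Cd3e, Cd3g, Cd4 and Cd8a peak in mediastinal node, Lat in ceco-colonic node and Tox2 in ileal node at 233 to 264 CPM, while Eomes is high in spleen, jejunal and ceco-colonic node.

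Ileal and ceco-colonic node, the 2 intestinal sites with 3 deep libraries each, differed in direction from gene to gene. As values without a test, the log2 difference of ileal minus ceco-colonic node was -2.40 ± 0.47 (SE) for Eomes, 2.45 ± 0.37 for Tox2, 1.36 for Cd4, -1.31 for Lat and -1.27 for Cd2. It was between -0.72 and 0.31 for Cd3d, Cd3e, Cd3g and Cd8a. For Eomes, Tox2, Cd4, Lat, Cd2 and Cd3d the 3 ileal libraries did not overlap with the 3 ceco-colonic ones. The share of all genes that separated these 2 sites in this way was not computed, so this is a description only.

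The first test asked whether these 2 intestinal nodes together differed from the 4 nodes whose titles name no digestive organ (inguinal, super cervical, deep cervical and mediastinal). Tox2 was higher in the intestinal nodes, at 149 ± 114 CPM (SD, n = 6) against 28.4 ± 22.1 CPM (n = 12), a log2 fold change of 2.22 ± 0.21 (SE; edgeR adjusted p = 8.15e-08). It was the only one of the 9 genes to pass, where 3.77% of 19702 genes passed in either direction, 1.45% higher and 2.32% lower. Each intestinal site stood above the 4 nodes as a value, ileal node by 3.44 ± 0.24 and ceco-colonic node by 0.99 ± 0.27 on the log2 scale, although the mediastinal libraries reached or passed the ceco-colonic ones. In bulk RNA, fewer cells of a type and less RNA per cell cannot be told apart, here and in every comparison below.

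The other 8 genes did not pass. The log2 fold change was 0.31 ± 0.25 for Cd3d, -0.28 ± 0.31 for Cd3e and -0.09 ± 0.27 for Cd3g (edgeR adjusted p = 0.497, 0.657 and 0.902). It was 0.47 ± 0.24 for Cd2 and 0.61 ± 0.27 for Lat (adjusted p = 0.263 and 0.205), and for these 2 genes ceco-colonic node stood 1.11 and 1.26 above the 4 nodes and ileal node -0.16 and -0.05 from them. Cd4 had 0.21 ± 0.33 and Cd8a -0.33 ± 0.32 (adjusted p = 0.762 and 0.595). Eomes had 0.45 ± 0.28 (adjusted p = 0.358), from 1.65 in ceco-colonic node and -0.75 in ileal node. The median over the 9 genes was 0.31 and over all genes tested -0.03. Scaling by RLE or by plain totals moved the latter to -0.15 and -0.19, with 249 higher and 653 lower genes or 155 higher and 535 lower against 285 and 457 with TMM.

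Among the wider lists of T cell genes, few passed in this contrast. None of 20 receptor and signalling genes, none of 14 transcription and trafficking genes and none of the 11 tested of 17 cytotoxic and natural killer genes did so in edgeR. At an unadjusted p under 0.05 edgeR counted 4, 1 and 0 of them, and DESeq2 with adjusted p-values 0, 1 and 0. Of 11 tested genes of the TOX family and of follicular helper or exhausted T cells, only Lag3, an inhibitory receptor that binds MHC class II, was higher (126 ± 23.6 against 62.0 ± 33.0 CPM, log2 1.21 ± 0.33, adjusted p = 0.0318). Tox and Tox3, the relatives of Tox2, had 0.58 ± 0.24 and -1.07 ± 0.54 (adjusted p = 0.165 and 0.263). Genes of other cells moved in the same contrast as Tox2. Marco was higher by 1.31 ± 0.37 (adjusted p = 0.0462), as was the macrophage protein Cd5l by 1.499 ± 0.30, and these were 2 of 13 macrophage genes. The dendritic cell genes Clec9a (1.73 ± 0.34), Batf3 and Ccl22 passed among 9. Of 10 lymphatic endothelial and addressin genes 4 passed, among them Madcam1 (1.74 ± 0.27) and Prox1 (1.32 ± 0.31). Over all sites the summed macrophage list ran from 8267 to 9175 CPM in ileal node and 1576 to 3792 CPM in ceco-colonic node, and from 1170 to 4407 CPM in the 4 others. The summed lymphatic list was at 279 to 319 and 91.2 to 142 CPM against 46.5 to 152 CPM. Their part in the Tox2 difference was not tested.

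**Figure D3:**
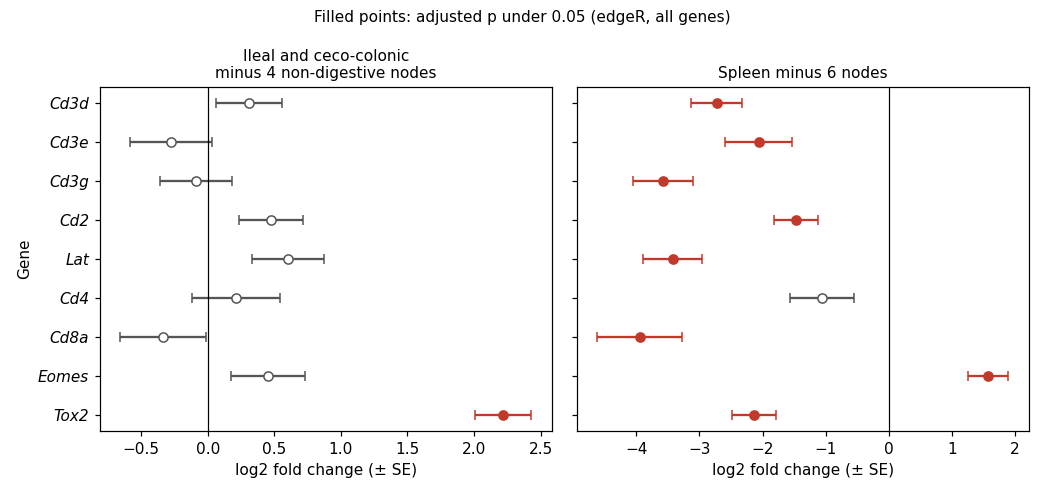
Log2 fold change with its standard error (bars) for the 9 genes in 2 contrasts of the 22 libraries, the intestinal nodes minus 4 other nodes (left) and spleen minus 6 node sites (right). Filled red points passed an edgeR adjusted p of 0.05 over all genes: Tox2 alone on the left at 2.22, and on the right 7 genes below 0 and Eomes above it at 1.57, with Cd4 open.

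The second test asked whether the 4 non-digestive nodes differed among themselves, and all 9 genes did. The adjusted p-values of the edgeR F test ran from 1.27e-05 for Cd3e to 0.00316 for Lat, with 1.54e-05 for Tox2 and 0.000731 for Eomes. This contrast separated most genes, since 58.5% of 19702 passed. Of the wider lists 19 of 20 receptor and signalling genes, 13 of 14 transcription and trafficking genes and all 11 tested cytotoxic genes passed, but so did all 10 B cell genes and 9 of 13 macrophage genes.

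The 9 genes fell into groups by the site that set them apart, as seen when each site was left out in turn, a check chosen after seeing the data. Without deep cervical node, Cd3d, Cd2 and Lat no longer passed (adjusted p = 0.274, 0.179 and 0.718; 6 of 9 genes, background 46.1%). For these 3 genes deep cervical node was the low site, with means of 24.8 ± 8.55, 25.004 ± 7.50 and 37.0 ± 19.9 CPM against 101 to 194 CPM in the other 3 sites. Without mediastinal node, Cd3e, Cd4 and Tox2 no longer passed (adjusted p = 0.118, 0.419 and 0.706; 6 of 9, background 37.7%). For these the mediastinal mean was the high one, with 40.8 ± 9.47, 55.6 ± 10.96 and 64.2 ± 8.67 CPM against at most 9.37, 13.5 and 18.8 CPM. Cd3g, Cd8a and Eomes passed in each case, as all 9 genes did without inguinal (background 46.1%) or super cervical node (56.2%). The leading genes of the wider lists were not alike either. Trac, the α chain constant region, was at 44.0 ± 8.49 CPM in mediastinal node and at most 10.6 CPM in the other 3, and Ccl5, a chemokine of memory T cells, at 34.9 ± 6.75 against at most 4.46 CPM. Bcl11b, a T cell lineage factor, was instead at 149 ± 32.9 CPM in mediastinal node, between 81.2 ± 36.9 CPM in deep cervical and 507 ± 101 CPM in super cervical node. Mediastinal libraries were the deepest of the series (41240156 to 69139450 counts), and their Malat1 was the lowest at 2282 to 4722 CPM. The part of these in the result was not tested.

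The third test compared spleen, the other organ sampled, with the 6 node sites. Of the 9 genes 7 fell and Eomes rose, where 31.4% of 19702 genes were lower and 25.7% higher in spleen. Cd8a was at 0.793 ± 0.693 CPM in spleen (n = 3) and 19.6 ± 18.3 CPM in the nodes (n = 18), a log2 fold change of -3.95 ± 0.67 (edgeR adjusted p = 2.08e-05). Cd3g (-3.58 ± 0.48), Lat (-3.42 ± 0.47) and Cd3d (-2.73 ± 0.40) followed, with adjusted p = 7.41e-07, 9.96e-07 and 3.00e-06. Tox2 fell by 2.13 ± 0.35 (1.19e-05), Cd3e by 2.06 ± 0.53 (0.00175) and Cd2 by 1.47 ± 0.35 (0.000818). All spleen libraries lay below all node libraries for Cd8a, and likewise for Cd3g. The share of all genes that separated spleen from the nodes in this way was not computed, so this is a description only. The median of the 9 genes was -2.13 and that of all genes tested -0.27. That median depended on the scaling, being -0.09 with RLE and -1.05 with plain totals, with 5732 higher and 5767 lower genes or 2738 and 8351 against 5057 and 6192.

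Eomes was the exception. It averaged 50.5 ± 18.5 CPM in spleen and 22.1 ± 17.0 CPM in the nodes, a log2 fold change of 1.57 ± 0.32 (edgeR adjusted p = 0.000159), although the ceco-colonic libraries and 1 inguinal library lay within the spleen range. With plain totals it was 0.82 (adjusted p = 0.0230). Measured from the median of all genes it was 1.84 with TMM and 1.88 with plain totals, against -3.68 and -3.72 for Cd8a. On plain totals the spleen libraries held 40.7, 29.3 and 27.6 CPM of Eomes. The isotype library from jejunal node held 29.1 CPM (interval 24.6 to 34.3), so Eomes in spleen was not set apart from that level. Cd4 did not pass (-1.06 ± 0.51, adjusted p = 0.0772). That call changed with the fit. With a replicate block Cd4 fell by 1.18 (edgeR adjusted p = 0.0163), with plain totals by 1.71 (0.0195), without the filter by 1.27 (0.0213) and without deep cervical replicate 1 by 1.14 (0.0405). Without spleen replicate 3, the library of 23.1 CPM and the shallowest of the 22 at 1165387 counts, it fell by 2.07 (0.00317).

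Other T cell genes fell in spleen too. Of 20 receptor and signalling genes 12 were lower and 1 higher. Trac was at 0.293 ± 0.377 against 13.3 ± 14.9 CPM (-5.25 ± 0.84, adjusted p = 8.89e-06), and Cd247, the ζ chain, at 0.107 ± 0.185 against 5.70 ± 6.93 CPM. Cd8b1, the second chain of the Cd8 co-receptor, changed by -3.56 ± 0.58 (adjusted p = 1.14e-05). The gene that rose was Ubash3a, by 1.05 ± 0.30 (adjusted p = 0.00373), and Lck stood at 97.5 ± 60.6 against 102 ± 52.6 CPM (adjusted p = 0.560). Of 14 transcription and trafficking genes 10 were lower, including the homing receptor Ccr7 (-3.03 ± 0.56). None was higher in edgeR, also at an unadjusted p under 0.05 (0 genes), or in DESeq2 (0). Among cytotoxic and natural killer genes 5 of 11 were lower and 1, the granzyme gene Gzma, was higher. Nkg7, a cytotoxic granule protein, was at 0.612 ± 0.567 against 17.4 ± 11.1 CPM (-4.12 ± 0.63, adjusted p = 4.76e-06), and Il2rb, an interleukin 2 and 15 receptor chain that Eomes is known to activate in mouse T cells, at 2.36 ± 1.25 against 21.3 ± 11.8 CPM (-2.89 ± 0.45, adjusted p = 6.78e-06). Tbx21, the gene of the related factor T-bet, was at 0.426 ± 0.738 against 2.85 ± 2.05 CPM (adjusted p = 0.0572). Of 11 tested genes of the TOX family and of follicular helper or exhausted T cells 7 were lower, with Tox at 1.69 ± 0.44 against 9.22 ± 4.02 CPM (-2.37 ± 0.45, edgeR adjusted p = 8.69e-05), and 1, the inhibitory receptor gene Tigit, was higher. Of 10 B cell genes 5 were higher and 5 lower, with Ms4a1 up by 2.02 ± 0.27 and Cd79a down by 2.63 ± 0.52. The fall was not limited to T cell genes. Of 13 macrophage genes 7 were lower and 0 higher, and of 9 dendritic cell genes 6 were lower and 1 higher. Among 10 lymphatic endothelial and addressin genes 5 were lower and 0 higher. Of 8 tested thymocyte and thymic epithelium genes, by contrast, 5 were higher and 2 lower. Rpl22, the gene of the tagged protein, was itself lower (39.0 ± 31.1 against 143 ± 32.8 CPM, -1.82 ± 0.38). Malat1 was at 92602 to 202263 CPM in spleen and the 3 ribosomal features took 5.55% to 42.7% of its counts. Their part in these differences was not tested.

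Ratios within a library do not depend on the scaling between libraries. The log2 ratio of 2 genes (1 count added to each) was compared between the 6 intestinal and the 12 non-digestive libraries with an exact two-sided permutation test over 18564 splits, for 3 ratios. Because counts are not divided by gene length, a ratio is read only against the same ratio elsewhere. Tox2 relative to Cd3e was 3.64 ± 1.35 (SD, n = 6) in the intestinal and 1.26 ± 0.83 (n = 12) in the other libraries, a difference of 2.38 (exact permutation p = 0.000646, 0.00194 adjusted over the 3 ratios). Ileal node gave 4.73 ± 0.38 and ceco-colonic node 2.55 ± 0.92, against site means of 0.67 to 1.82 in the other 4 nodes and 1.60 in the isotype library. These values hold for Cd3e as denominator, and ratios of Tox2 to Cd3d or Cd3g were not computed. Cd3e itself varied against Cd3d, with a log2 ratio of -4.24 ± 0.23 in ceco-colonic and -1.52 ± 0.33 in mediastinal node. Libraries of a site share that site. With the 6 site means as values the exact permutation p was 0.0667, the smallest that 2 against 4 sites allow.

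The co-receptor ratio, Cd8a relative to Cd4, was -0.62 ± 0.82 in the intestinal and -0.11 ± 0.61 in the other libraries (exact permutation p = 0.152, 0.229 adjusted). It was -1.28 ± 0.35 in ileal node and 0.03 ± 0.54 in ceco-colonic node. Without ceco-colonic replicate 2 the difference was -0.74 (exact permutation p = 0.0433) and without deep cervical replicate 3 it was -0.65 (exact permutation p = 0.0440), both p-values being unadjusted. Eomes relative to Cd3e was 1.26 ± 1.60 against 0.62 ± 1.93 (exact permutation p = 0.483, 0.483 adjusted). Its site means ran from -1.76 ± 0.33 in mediastinal node to 2.63 ± 0.36 in ceco-colonic node and 4.14 ± 0.68 in spleen, and it was 3.26 in the isotype library.

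The 3 CD3 chains, which are assembled into 1 complex, did not keep a constant proportion of counts. As a description chosen after seeing the data, the log2 ratio of Cd3e to Cd3d was -1.52 ± 0.33 in mediastinal node and -4.54 ± 0.74 in super cervical node. For Cd3g to Cd3d the same sites gave 0.57 ± 0.14 and -1.44 ± 0.64. The isotype library was between them, at -2.68 and -0.10. In both ratios all 3 mediastinal libraries were above all ileal, ceco-colonic, inguinal and super cervical libraries. The highest Cd3e to Cd3d ratio, -1.28, was in spleen replicate 3, the shallowest of the 22 at 1165387 counts. It rests on 1.74 counts of Cd3e and 5.67 of Cd3d. Across the 22 libraries the ratios rose with the logarithm of the library total, with Pearson r = 0.49 for Cd3e and 0.57 for Cd3g; the libraries of a site share both site and depth, and the part of depth was not tested.

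**Figure D4:**
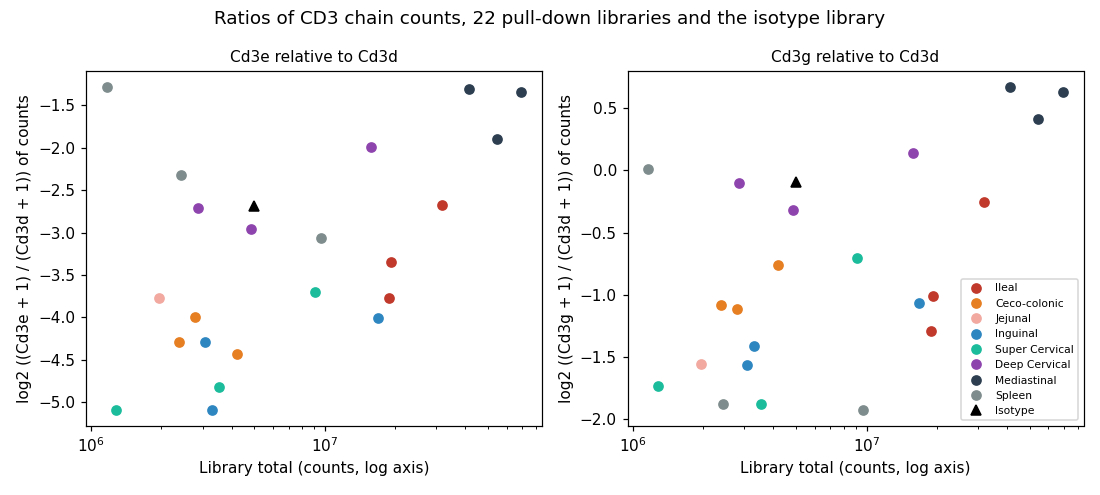
Log2 ratio of Cd3e to Cd3d counts (left) and of Cd3g to Cd3d counts (right), 1 count added to each, against library total (log axis) for the 22 pull-down libraries, coloured by site, and the isotype library (black triangle). The 3 mediastinal libraries, the deepest, lie at the top right, and the isotype library lies at -2.68 and -0.10. In the Cd3e panel spleen replicate 3, the shallowest library, lies highest at -1.28.

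The 9 genes did not vary as 1 group across the 22 libraries. On log2 CPM, the 21 pairs among the 7 genes of the receptor complex, Cd2, Lat and the co-receptors had a Pearson r between 0.24 (Cd2 and Cd4) and 0.96 (Cd3g and Cd8a), with a median of 0.77. Cd3d, Cd2 and Lat formed pairs of 0.87 to 0.95. With the 7 genes r was 0.29 to 0.52 for Tox2 and -0.41 to 0.39 for Eomes, and it was -0.23 between Eomes and Tox2. These values describe 22 libraries that share sites and differ in depth, and carry no test.

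The measures that ran beside Eomes and Tox2 were different. Eomes followed Malat1 (r = 0.79) and the share of ribosomal features (0.55) and ran against the logarithm of the library total (-0.62). Cd3e had the opposite signs, with -0.73, -0.51 and 0.75. Tox2 followed Marco (0.81) and the lymphatic factor Prox1 (0.69). Of 13366 genes, those most like Eomes over the 22 libraries were Niban3 (r = 0.94), Trim12c, Gpatch4, Cnga1 and Lhx5 (0.93 each). Those most like Tox2 were the interferon-inducible GTPase Gbp2b (0.93), the scavenger receptor Scarf1 (0.91), the myeloid hexokinase Hk3, Igfbp4 and Smim35 (0.90 each). Those most like Cd3e were the MHC class I gene H2-Q7 (0.95), Tmsb10, Il16, the haematopoietic GTPase Rac2 and the lymphocyte GTPase Gimap4 (0.93 each). No gene of the fixed T cell lists was among the 5 nearest to any of the 3.

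**Figure D5:**
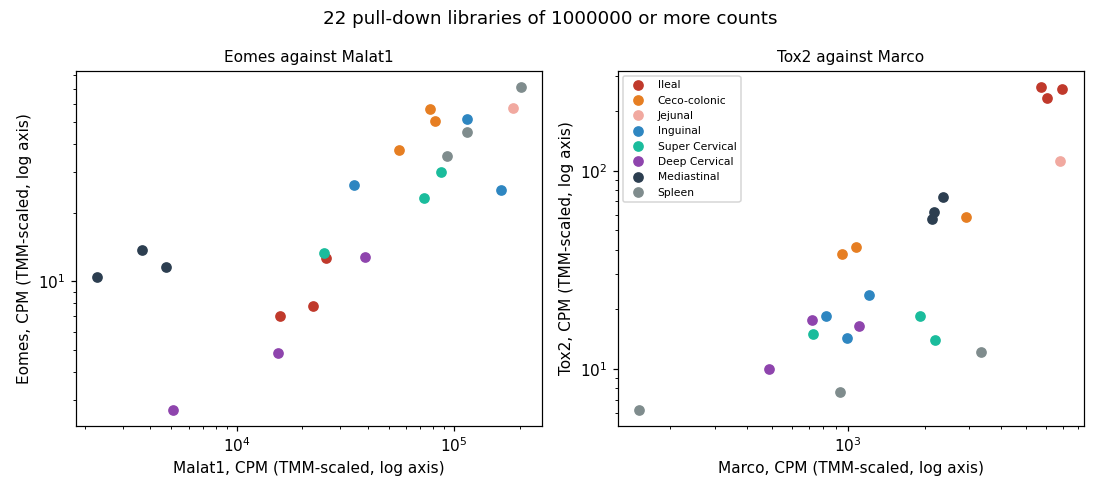
Eomes against Malat1 (left) and Tox2 against Marco (right), both in TMM-scaled CPM on log axes, with 1 point for each of the 22 pull-down libraries, coloured by site. Eomes is lowest where Malat1 is low and highest in spleen, jejunal and ceco-colonic libraries (r = 0.79), and the ileal libraries hold the highest Tox2 together with Marco of 5729 to 6967 CPM (r = 0.81).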

How the data were processed

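Ribosome-bound polyadenylated RNA was sequenced from 36 pull-downs and 1 isotype control. The values are estimated counts per gene, deposited unscaled by the authors; kallisto, edgeR and limma are named in the submitters' processing notes without roles or versions, together with the builds GRCm39 and mm10. The step from transcripts to genes and the use of strand are not given in the sources used here, and reads shared by overlapping genes could be split. The members and gene lists were chosen with earlier results of these data known. Counts were rounded and tested with edgeR 4.0.16 in R 4.3.3 (quasi-likelihood F test, robust; TMM; filterByExpr with minimum count 10 and minimum total 15, which left 19702 genes) on the 22 pull-down libraries of 1000000 counts or more, with 1 mean per site. P-values were adjusted by the Benjamini-Hochberg method across the whole table (threshold 0.05), and each SE was derived from the F statistic. The isotype comparison uses plain totals and genes of 10 or more isotype counts. Likeness is Pearson r of log2 CPM (prior count 2) among genes of mean 1 CPM or more. Named list genes are up to 3 per list and contrast with the largest change or smallest p past the threshold. Ubash3a, Lck, Ms4a1, Tbx21, Gzma and Tigit in spleen and Tox and Tox3 in the intestinal nodes were added after their values were seen. So were Skap1, Themis and Tcf7 in the isotype comparison. A floor of 3 counts equals 0.0434 CPM at the greatest depth and 13.5 CPM at the least; intervals and floors cover counting error only. Replicates of a site differed far beyond counting noise in every pair (chi-square per degree of freedom 10.8 to 198). Scripts were tested on simulated data. Alternatives were other scalings (RLE, plain totals), DESeq2 1.42.0, no filter, all 36 libraries, a replicate block and each library left out; promoter windows are from RefSeq (GRCm38.p6).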

Additional observations from a re-analysis of the deposited data

How the results depend on the processing

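Of 621 recomputed member results, 615 kept their side of the threshold, 5 gained the call and 1 lost it. The 5 are Cd4 in spleen, which fell by 1.71 with plain totals (adjusted p = 0.0195), 1.27 without the filter (0.0213), 1.18 with a replicate block (0.0163), 1.14 without deep cervical replicate 1 (0.0405) and 2.07 without spleen replicate 3 (0.00317), all in edgeR. Cd2 in spleen lost its call with all 36 libraries (-1.24, adjusted p = 0.0776). Some results that passed in neither fit changed sign. In the intestinal contrast the log2 fold change ran from -0.28 to 0.09 for Cd3g and from -0.52 to 0.01 for Cd8a. Tox2 in the intestinal nodes stayed between 2.11 and 2.28 when single libraries were left out. The number of genes called in that contrast was 742, but 1270 without the filter, 339 with all 36 libraries, 1636 with DESeq2 (446 higher, 1190 lower) and 303 to 1827 when 1 library was left out. It moved by over 1.5 times without ileal replicate 1 (354) or 3 (360), ceco-colonic replicate 1 (303) or 3 (440), inguinal replicate 3 (474), super cervical replicate 3 (467), mediastinal replicate 3 (482) and deep cervical replicate 1 (1827). Among the 4 non-digestive nodes 11521 genes passed, 7500 with all 36 libraries, 7432 without mediastinal node (a check chosen after seeing the data) and 9120 to 12215 without single libraries; for spleen it was 11249, and 9716 to 11605 without single libraries. With a replicate block the counts were 847 (428 higher, 419 lower), 11659 and 11095. The numbers were not taken to pair the libraries, since same-numbered libraries correlated at -0.37 to 0.48 over 63 pairs (mean 0.05, against -0.03 for different numbers). Of 21 libraries 12 correlated best with their own number, a hint from the data, and whether same-numbered libraries share an animal is not stated. The ratio of Tox2 to Cd3e differed by 2.08 to 2.78 without single libraries and by 2.38 over site means (exact permutation p = 0.0667). That of Cd8a to Cd4 differed by -0.74 to -0.30 without single libraries, and that of Eomes to Cd3e by 0.33 to 1.07. The isotype median of 0.94 ranged from -0.19 to 1.16 when single jejunal libraries were left out, and reversed to -0.19 without replicate 2. The causes of these changes were not tested. Depth limits the 14 shallow libraries and the isotype counts under 10.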
